A study of Homo sapiens with 9 samples.

Results

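Neurofilament subunits and their relatives among the intermediate filaments were followed across the 9 arrays of the series through 7 genes: *NEFL*, *NEFM* and *NEFH*, which code for the light, medium and heavy neurofilament chains, *INA* (internexin alpha), *PRPH* (peripherin), *VIM* (vimentin) and *NES* (nestin). These are 7 of the 18239 genes with a single-symbol probe set, and they are read by 14 of 45259 such probe sets (49386 probe sets in all). *NEFM* and *NEFL* were chosen because they had the largest negative difference from untreated cells of all genes on the BRD1-L array, so their values there are a description and carry no test. The other 5 genes were added to see whether the type III and type IV filaments moved with them.

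The study varied BRD1, a bromodomain protein that brings histone acetyltransferases to chromatin, in HEK293T cells, a human embryonic kidney line, and read RNA on Affymetrix U219 arrays. Single arrays were run for untreated HEK293T cells, for HEK293T cells that stably express the V5-tagged short isoform BRD1-S, and for cells that stably express the V5-tagged long isoform BRD1-L. The source labels of both lines read stable/episomal expression, without saying which applies. The other 6 arrays came from HEK293T cells transfected either with BRD1 siRNA or with a control, in 1 pair for the Qiagen kit and in pairs 1 and 2 for the Dharmacon kit. The labels name these controls mock, whereas the study describes scrambled siRNA. They are called control siRNA here. The promoter of the BRD1 constructs and the number of clones behind each stable line are not given in the sources used here. Every line and every single pair therefore rests on 1 array per condition, with no replicate check. Nothing in the labels says that the siRNA arrays came from separate cultures. The study calls 2 siRNA control experiments independent and counts its knockdowns as separate experiments, without saying which arrays came from separate cultures. The p-values are therefore taken to measure only the spread between these arrays. In bulk RNA, fewer cells with a transcript and less transcript per cell cannot be told apart.

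Intermediate filaments are rope-like polymers of the cytoskeleton, and their make-up depends on the cell type. In neurons the light chain NEFL forms the core together with NEFM and NEFH, whose long tails stand out from the filament as side arms and help to set the calibre of the axon. INA joins them mostly in the central and PRPH mostly in the peripheral nervous system, VIM is the filament of mesenchymal and many cultured cells, and NES, typical of neural progenitors, needs a partner such as VIM to polymerise. HEK293 cells, although derived from kidney, are known to express neurofilament subunits.

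Promoter sequence was read from RefSeq (GRCh38.p14), in windows of 300 bases from 250 before to 50 after each start, to show which core elements lie close to the starts of these family members. The table held 4 of the 7 genes, *INA*, *PRPH*, *VIM* and *NES*, while *NEFL*, *NEFM* and *NEFH* were not analysed here. On either strand, TATAAA (the TATA box) or GGGCGG (the GC box, CCGCCC on the other strand) was searched, and neither motif overlaps the other. Each line below gives 30 bases in reading direction of the gene, with the match in capitals.
PRPH: agaccgcagggcTATAAAgccgcctcgcag
VIM: ccagagggacggGGGCGGggactctgcaag
INA: tgagcaggagctCCGCCCccagcgcgccgc
NES: aaggcctgggtcCCGCCCctcttcccgccc
The *PRPH* stretch is chr12:49295104-49295133 on the plus strand and its match starts 31 bases before the start. The *VIM* stretch is chr10:17228183-17228212, plus strand, with the match 46 bases before the start. For *INA* it is chr10:103277065-103277094, plus strand, at 61 bases before, and for *NES* chr1:156677452-156677481, minus strand, at 62 bases before. TATAAA was found in 11.5% of all 35116 windows and in 1 of the 4 here, and GGGCGG in 45% of windows and in the other 3, with 4 matches each in *INA* and *NES*. A match is a string of letters and not a measured binding site.

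Values are log2 intensities, and a level is the mean over a gene's probe sets unless a probe set is named. The array medians ran from 5.41 to 5.53, and the median of all values, 5.47, is used as a mark of low signal. The control siRNA arrays of the Qiagen pair and Dharmacon pair 1 lay close together, with 0.52% of probe sets more than 1.5-fold apart, and 6.57% and 7.16% of probe sets separated them from the control of Dharmacon pair 2, which differed from untreated cells in 2.56%. *BRD1* followed its labels. Its level was 7.61 in untreated cells, 9.27 with BRD1-S and 9.30 with BRD1-L, where 1 of 3 probe sets carried the gain (4.78 and 4.94) and the others differed from untreated cells by 0.00 to 0.12. It was lower with BRD1 siRNA than with control siRNA by 0.75 in the Qiagen pair, 0.84 in Dharmacon pair 1 and 1.00 in Dharmacon pair 2, below the 3 controls in every case. Of the markers of embryonic kidney, 4 of the 6 measured lay above 5.47 in untreated cells (*SIX2* highest at 7.75), and none of those of fibroblasts, blood, hepatocytes or astrocytes did.

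*NEFL*, the core subunit, was among the well-measured genes of HEK293T cells. Its level was 10.02 in untreated cells, 9.99 with BRD1-S and 6.67 with BRD1-L. With control siRNA it was 10.63 (Qiagen), 10.59 (Dharmacon 1) and 10.07 (Dharmacon 2), and with BRD1 siRNA 10.32, 10.41 and 10.25 in the same order. The BRD1-L array stood alone at the bottom, and the 8 others spanned only 0.63. All 3 probe sets showed the gap, with 10.40, 9.99 and 9.68 on the untreated array and 7.23, 6.36 and 6.43 on the BRD1-L array. The difference of -3.35 is a level 10.2 times lower, and *NEFL* still lay above the median of all values there.

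*NEFM*, which carries side arms, had the lowest difference from untreated cells of all genes on the BRD1-L array, by the choice made. It was at 9.75 in untreated cells, 9.07 with BRD1-S and 6.0 with BRD1-L. The control siRNA arrays read 10.47 (Qiagen), 10.40 (Dharmacon 1) and 9.78 (Dharmacon 2), against 9.80, 10.36 and 9.67 with BRD1 siRNA. BRD1-L cells again lay far below the 8 other arrays, and BRD1-S cells were the lowest of those 8. The probe sets were close to each other, at 10.02 and 9.48 in untreated cells, 9.34 and 8.81 with BRD1-S and 6.14 and 5.87 with BRD1-L. The level was 13.4 times lower in BRD1-L than in untreated cells (-3.75) and 1.60 times lower in BRD1-S cells (-0.68), 2 differences that share the untreated array.

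No other gene lay as far below untreated cells on the BRD1-L array. Only these 2 genes were lower by more than 3 log2 units, 8 were lower by more than 2 and 47 by more than 1, of 18239. Next below them in rank, just outside the choice, were the zinc finger gene *ZNF726* at -2.54 and *CALCB*, a calcitonin-related peptide gene, at -2.33, followed by *MATK*, a tyrosine kinase gene, at -2.23 and *FGF13*, a fibroblast growth factor homologue, at -2.15. Set directly against BRD1-S cells, which leaves the untreated array out, the BRD1-L array differed by -3.32 in *NEFL* and by -3.07 in *NEFM*. With the averaged control siRNA arrays as reference the differences were -3.76 and -4.21. These values rest on the array by which both genes were chosen.

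**Figure D1:**
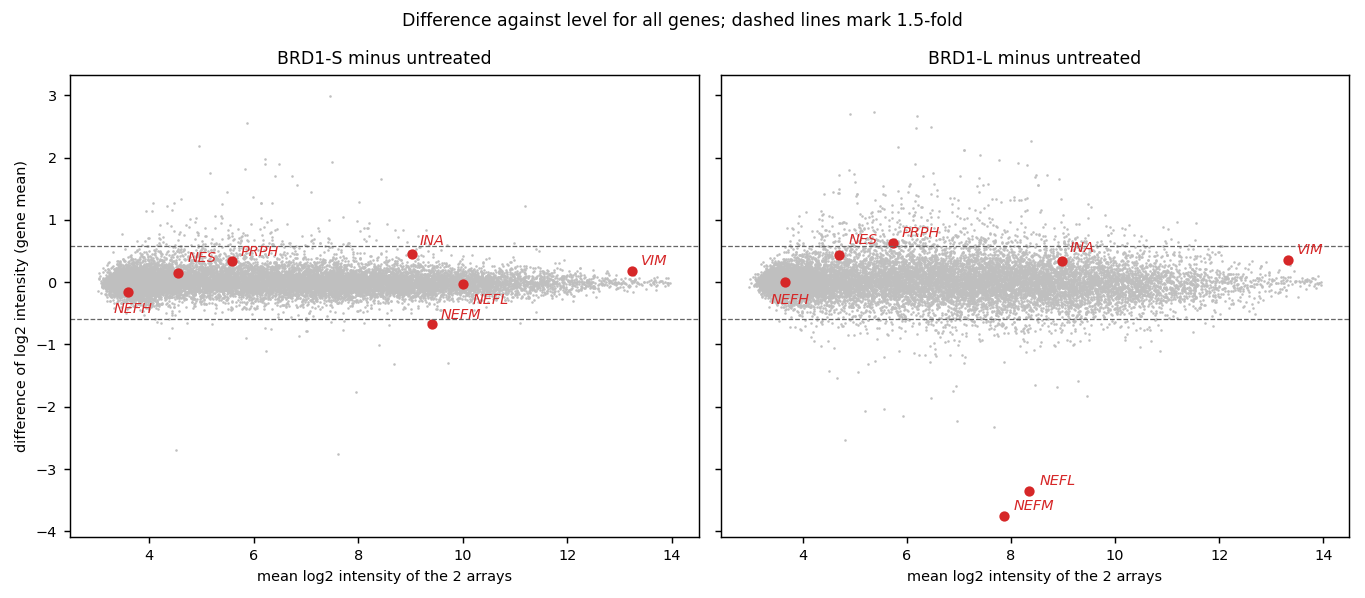
Each grey point is 1 of 18239 genes, with the mean log2 intensity of the compared arrays across and the log2 difference from untreated cells upward, for BRD1-S (left) and BRD1-L (right); filament genes are red and dashed lines mark 1.5-fold. In BRD1-L cells *NEFM* (-3.75) and *NEFL* (-3.35) lie below all other genes, whereas in BRD1-S cells *NEFM* is at -0.68 and *NEFL* at -0.03.

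The heavy chain gave little signal. *NEFH* was at 3.67 in untreated cells, 3.52 with BRD1-S and 3.67 with BRD1-L, at 3.83, 4.01 and 3.67 with control siRNA (Qiagen, Dharmacon 1, Dharmacon 2) and at 3.42, 3.57 and 4.55 with BRD1 siRNA, all below the median of all values. At this level a difference like that of *NEFL* and *NEFM* was not detectable. The array with BRD1 siRNA of Dharmacon pair 2 was the highest, through 1 probe set at 5.29 against 3.63 in its control, while the other read 3.81 and 3.71.

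*INA*, the fourth subunit of central neurofilaments, was well above the median of all values and was not lower in BRD1-L cells. It was at 8.81 in untreated cells, 9.26 with BRD1-S and 9.16 with BRD1-L. Control siRNA arrays read 8.26 (Qiagen), 8.37 (Dharmacon 1) and 9.02 (Dharmacon 2), and BRD1 siRNA arrays 8.38, 8.53 and 8.86. Both stable lines were above all 7 other arrays, by 0.45 (BRD1-S) and 0.34 (BRD1-L) over untreated cells, short of 1.5-fold (0.585 on the log2 scale). Both probe sets moved the same way in each line.

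Peripherin and vimentin, the type III members, were not lower in BRD1-L cells either. *PRPH*, read by 1 probe set near the median of all values, was at 5.42 in untreated cells, 5.76 with BRD1-S and 6.05 with BRD1-L, at 6.01, 6.33 and 5.94 with control siRNA and at 6.18, 6.15 and 5.93 with BRD1 siRNA. The untreated array was the lowest of the 9. BRD1-L cells were 0.63 above it, yet at -0.04 from the average control siRNA array (SD 0.21, n = 3).

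*VIM* lay near the highest of all values (14.47) throughout, at 13.14 in untreated cells, 13.33 with BRD1-S and 13.50 with BRD1-L. With control siRNA it was at 12.91 (Qiagen), 12.98 (Dharmacon 1) and 13.20 (Dharmacon 2), and with BRD1 siRNA at 13.06, 13.17 and 13.21. BRD1-L was the highest of the 9 arrays and BRD1-S the next, although the gain over untreated cells was small, 0.36 and 0.19. Both probe sets were highest in BRD1-L cells, at 13.53 and 13.48.

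*NES* was dim, with levels of 4.49 in untreated cells, 4.63 with BRD1-S and 4.93 with BRD1-L, 4.37, 4.33 and 5.30 with control siRNA and 4.50, 4.43 and 4.68 with BRD1 siRNA. The highest array was the control of Dharmacon pair 2. One probe set read 4.87 in untreated and 5.75 in BRD1-L cells, past 1.5-fold, while the other stood at 4.10 on both.

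**Figure D2:**
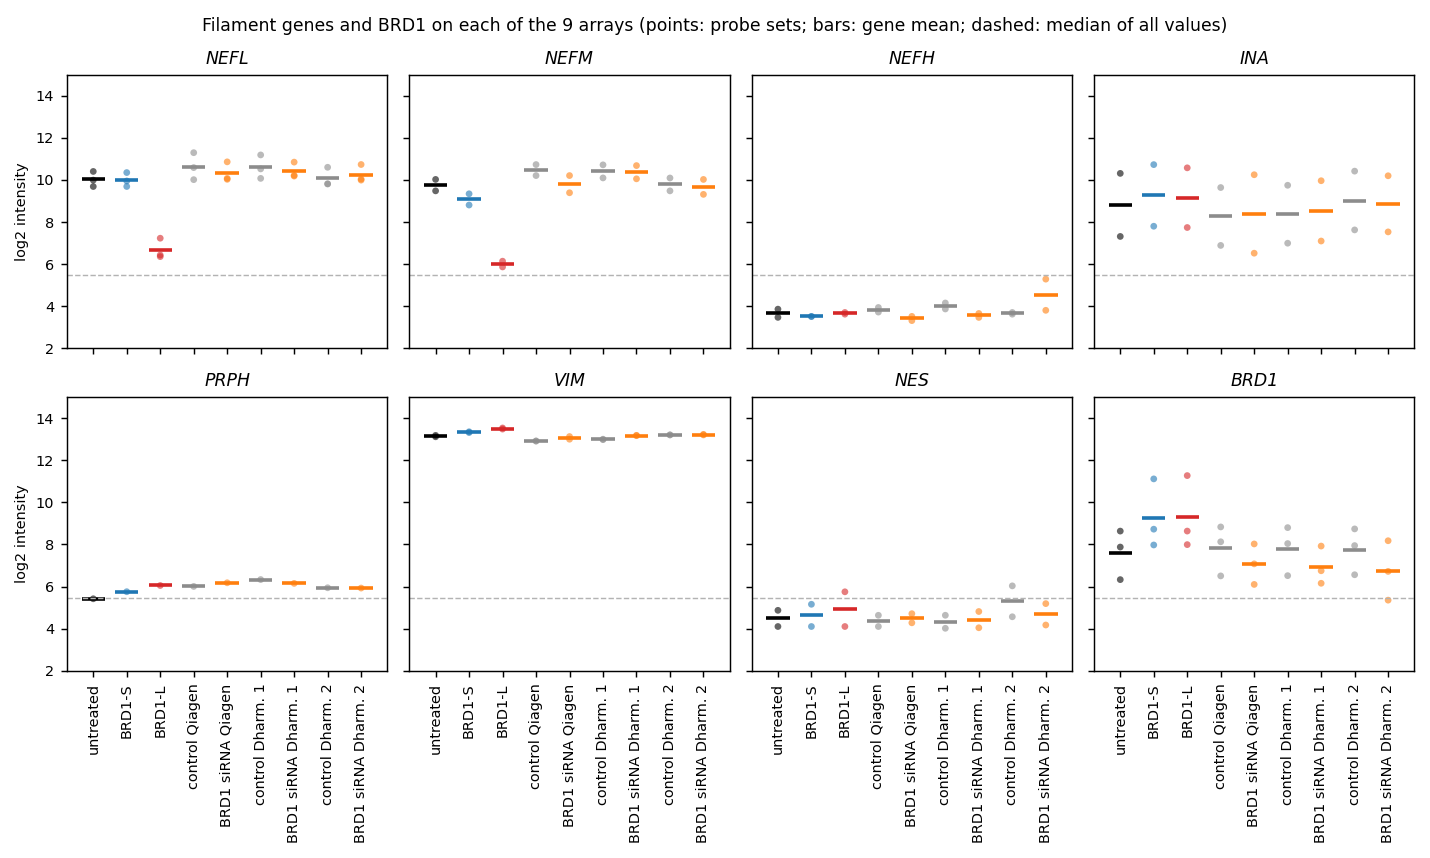
Log2 intensity of the 7 filament genes and *BRD1* on the 9 arrays; points are probe sets, bars the gene mean and the dashed line the median of all values (5.47). *NEFL* and *NEFM* are low on the BRD1-L array alone, at 6.67 and 6.0, and *NEFH* and *NES* lie below the dashed line in every gene mean.

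A count with the study's rule, any probe set past 1.5-fold, put *NEFL* and *NEFM* lower and *PRPH* and *NES* higher in BRD1-L cells, where 4.22% of all genes were lower and 6.21% higher. Since *NEFL* and *NEFM* were chosen on this contrast, nothing is read from that count. The *PRPH* call was lost with each array centred on its median (0.56) and with quantile normalization (0.57). In BRD1-S cells 1 filament gene was lower, *NEFM*, with both probe sets past the threshold, and none was higher (0.647% and 2.08% of all genes). *NEFM* was 18th from the lowest there by gene mean. That array shares its reference with BRD1-L.

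The question for the siRNA arrays was whether lowering BRD1 moved the filaments, a contrast that took no part in the choice of genes. In the Qiagen pair *NEFM* and *NEFH* were lower and *INA* higher (6.73% of all genes lower, 6.89% higher), in Dharmacon pair 1 *NEFH* was lower and none was higher (3.44% and 6.79%), and in Dharmacon pair 2 *NES* was lower and *NEFH* higher (1.83% and 1.31%). Each of these calls rested on 1 of 2 probe sets. The 2 *INA* probe sets went opposite ways in the Qiagen pair, at 0.61 and -0.37. By the mean over probe sets the counts were 0 higher and 1 lower (*NEFM*) in the Qiagen pair (2.17% and 1.35% of all genes), 0 and 0 in Dharmacon pair 1 (2.39% and 0.976%) and 1 higher (*NEFH*) and 1 lower (*NES*) in Dharmacon pair 2 (0.274% and 0.329%). Each of these counts rests on 0 to 2 genes, and no filament gene passed in the same direction in all 3 pairs. *NEFM* differed by -0.67, -0.04 and -0.12 in the 3 pairs, the same sign each time but past 1.5-fold only in the Qiagen pair. *VIM* was slightly higher in each, by 0.15, 0.19 and 0.01. *NEFL* (-0.31, -0.18 and 0.18), *NEFH* (-0.41, -0.45 and 0.88) and *NES* (0.13, 0.10 and -0.62) changed sign between Dharmacon pair 2 and the other pairs, as did *INA* (0.12, 0.16 and -0.16). Of the 3 *NEFL* probe sets 1 was not lower in any pair (0.02, 0.11 and 0.18), while the others were lower in the Qiagen pair and Dharmacon pair 1.

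**Figure D3:**
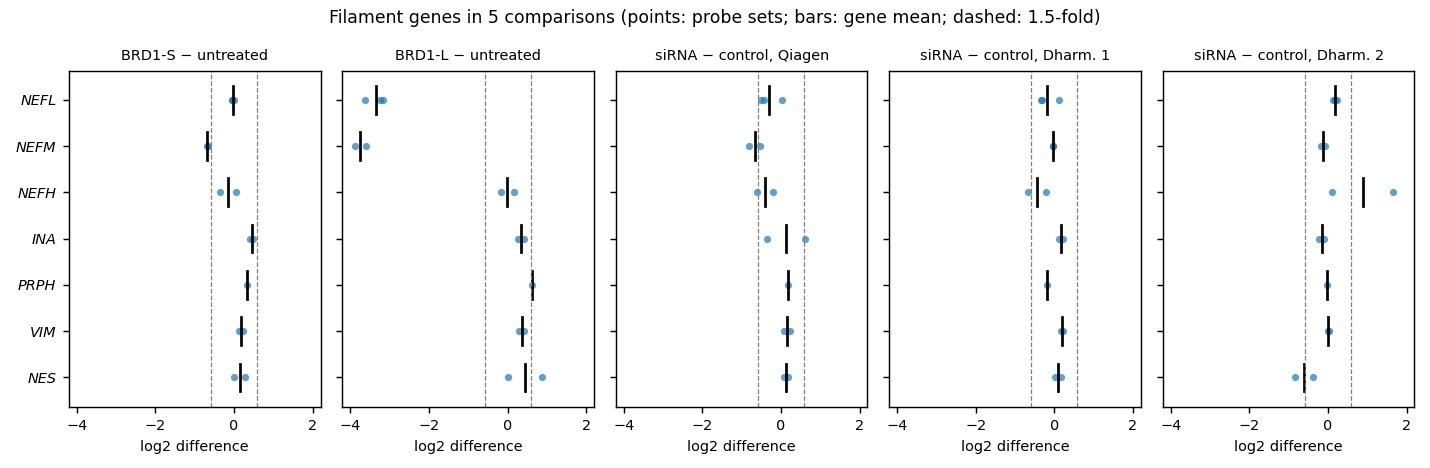
Log2 differences of the filament genes in the 5 comparisons; points are probe sets, bars the gene mean, dashed lines 1.5-fold. The differences of *NEFL* and *NEFM* in BRD1-L cells exceed every other, and the widest spread between probe sets is that of *NEFH* in Dharmacon pair 2, at 0.10 and 1.66.

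Fitted over the 3 BRD1 siRNA and 3 control siRNA arrays with the kit as covariate, none of the 7 genes was called by limma with Benjamini-Hochberg adjustment over all genes. None of the 18239 genes was, so 0% is the background here, and 894 had an unadjusted p under 0.05. *NEFL* differed by -0.10 (SE 0.16, 95% interval -0.48 to 0.28) with a limma adjusted p of 0.954, and *NEFM* by -0.28 (SE 0.26, -0.90 to 0.35) with an adjusted p of 0.901. *VIM* had the narrowest interval, -0.09 to 0.32 around 0.12 (SE 0.083, limma adjusted p 0.869). For *INA*, *PRPH*, *NES* and *NEFH* the estimates were 0.04, -0.01, -0.13 and 0.01, with limma adjusted p of 0.988, 0.996, 0.961 and 0.997. *BRD1* itself, the target, was lower by 0.86 and had a limma adjusted p of 0.869, so a missed call does not show that a gene stayed the same. The term for a different response with the Qiagen kit called no gene in limma (160 with an unadjusted p under 0.05). These fits leave the labelled pairs out. With the pairs as a block the intervals were narrower, for *NEFM* -0.62 to 0.07 (SE 0.14, limma adjusted p 0.619). For *NEFL* that interval was -0.38 to 0.17 (SE 0.11, limma adjusted p 0.812).

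The fit changed without Dharmacon pair 2, an alternative chosen after seeing the data. On the 4 arrays left, limma called 2487 genes (13.6%), among them *BRD1* (-0.80) and 1 filament gene, *NEFH*, at -0.43 with an adjusted p of 0.00933. *NEFH* lay below the median of all values on every one of them. Of its 2 probe sets 1 passed 1.5-fold in these pairs (-0.62 and -0.69) and the other read -0.20 and -0.21. With so few arrays the spread per gene came mostly from limma's pooling over all genes, and the controls of these 2 pairs lay close together. *NEFL* was then at -0.24 (limma adjusted p 0.0841) and *NEFM* at -0.35 (limma adjusted p 0.131).

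**Figure D4:**
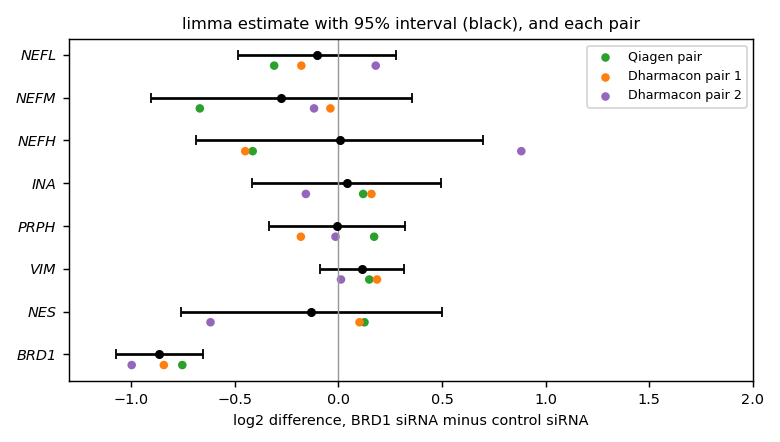
Log2 difference of BRD1 siRNA minus control siRNA for each filament gene and *BRD1*; black points and bars are the limma estimate and its 95% interval over 3 against 3 arrays, coloured points the single pairs. All filament intervals span 0, and Dharmacon pair 2 (purple) lies on the other side of 0 from the other pairs for *NEFL*, *NEFH*, *INA* and *NES*.

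The filament genes also differed among the controls. Compared with untreated cells, *NEFL* was by gene mean 0.60 higher in the Qiagen control and 0.57 higher in the Dharmacon 1 control, but only 0.05 higher in the Dharmacon 2 control. Of its 3 probe sets 1 moved little, at 0.02, 0.08 and -0.18, while the others read 0.78 to 0.90 in the Qiagen and Dharmacon 1 controls. *NEFM* showed the same order, at 0.72, 0.65 and 0.03, and *INA* the reverse, at -0.55, -0.44 and 0.21. The count past 1.5-fold was 3 higher (*NEFL*, *NEFM* and *PRPH*) and 1 lower (*INA*) for the Qiagen control (4.23% and 6.66% of all genes), 4 higher (those 3 and *NEFH*) and 0 lower for Dharmacon 1 (6.01% and 6.12%), and 1 higher (*NES*) and 0 lower for Dharmacon 2 (3.48% and 1.34%). No filament gene separated the Qiagen from the Dharmacon 1 control (0.614% of genes each way). Against the Dharmacon 2 control, *NEFL* and *NEFM* were higher and *INA* and *NES* lower in both, with 3.65% of genes higher and 7.95% lower for the Qiagen control and 4.98% and 7.62% for Dharmacon 1. Between the Qiagen and Dharmacon 2 controls the differences were 0.56 in *NEFL*, 0.68 in *NEFM* and -0.76 in *INA*, each larger in size than the difference of that gene in any of the 3 siRNA pairs.

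Genes that build or service neurofilaments were described from 10 lists, 131 measured genes in all, beside a median of 0 over all genes in BRD1-L cells and shares of 6.21% of all genes higher and 4.22% lower, against which each list's count is to be read. In lists of 8 to 22 genes, counts of 0 to 2 differ from those shares by less than 2 genes. Among 14 other intermediate filament genes 4 were higher and 0 lower in BRD1-L cells (median 0.12). *KRT8*, a keratin of simple epithelia, went from 4.87 to 7.53 and its partner *KRT18* from 9.42 to 10.02, and *SYNM* (synemin, which joins VIM filaments) was at 0.58 and *LMNA* (nuclear lamin A/C) at 0.39. For *KRT8* the 8 other arrays lay between 4.43 and 5.53, below BRD1-L, and BRD1 siRNA arrays were lower than their controls by 0.84 (Qiagen), 0.76 (Dharmacon 1) and 0.17 (Dharmacon 2), with a limma adjusted p of 0.869. Both keratins are also in the marker list of epithelial cells, whose summed level, on the log2 scale, was 9.56 in untreated and 10.32 in BRD1-L cells and 9.60 to 9.84 on the other 7 arrays, with 1 of 4 above the median of all values in untreated and 2 of 4 in BRD1-L cells. The other markers of that list lay within the range of the 8 other arrays in BRD1-L cells, with *CDH1* at 4.61 (4.37 to 5.38 on the others) and *EPCAM* at 5.08 (4.04 to 5.23). Against untreated cells alone *EPCAM* was 1.04 higher, with every probe set past 1.5-fold. The part of such cells in the filament results was not tested.

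Other components of the neuronal cytoskeleton were more often higher than lower in BRD1-L cells, unlike *NEFL* and *NEFM*. Of 22 measured, 7 were higher and 1 lower in BRD1-L cells (median 0.17, with 6.21% of all genes higher and 4.22% lower), and with BRD1-S 4 were higher and 0 lower (median 0.11, with 2.08% and 0.647% of all genes). *TUBB3*, the neuronal beta tubulin, was at 8.08 in untreated cells, 9.01 with BRD1-S and 9.74 with BRD1-L, with siRNA arrays from 7.46 to 8.76, so both lines were above all 7 others. *BASP1*, a growth cone protein gene, went from 7.26 to 9.53 in BRD1-L cells but was at 8.95 with control siRNA of Dharmacon pair 2. *MAP1B*, a microtubule-associated protein gene, was 0.75 higher and *TUBA1A*, an alpha tubulin gene, 0.68 higher. The *TUBA1A* level in BRD1-L cells, 11.425, lay within the 10.095 to 11.51 of the 8 other arrays. In the siRNA pairs 10, 11 and 0 genes of this list were higher (Qiagen, Dharmacon 1, Dharmacon 2), where 6.89%, 6.79% and 1.31% of all genes were. Lower were 1, 0 and 1, against 6.73%, 3.44% and 1.83% of all genes. Each gene named above was lower in the Qiagen and Dharmacon 1 controls than in untreated cells. *TUBA1A* was at 10.095 and 10.159 in these controls, 10.85 and 10.735 with BRD1 siRNA and 10.74 in untreated cells. For *MAP1B* the levels were 8.68 and 8.58, 9.15 and 9.47, and 9.11. The part of low controls in these counts was not tested. The marker list of neurons, of which *TUBB3* and *ENO2* alone exceeded the median of all values in untreated and in BRD1-L cells, summed to 9.03 in untreated cells, 9.69 with BRD1-S and 10.42 with BRD1-L and to 8.74 to 9.46 on the siRNA arrays, while *STMN2*, *ELAVL4* and *SNAP25* stayed below 3.8 on all 9. *GAP43* (4.12) and *SYP* (4.85) were each lowest on the BRD1-L array, against 4.30 and 4.97 in untreated cells. The part of such cells in the results was not tested.

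**Figure D5:**
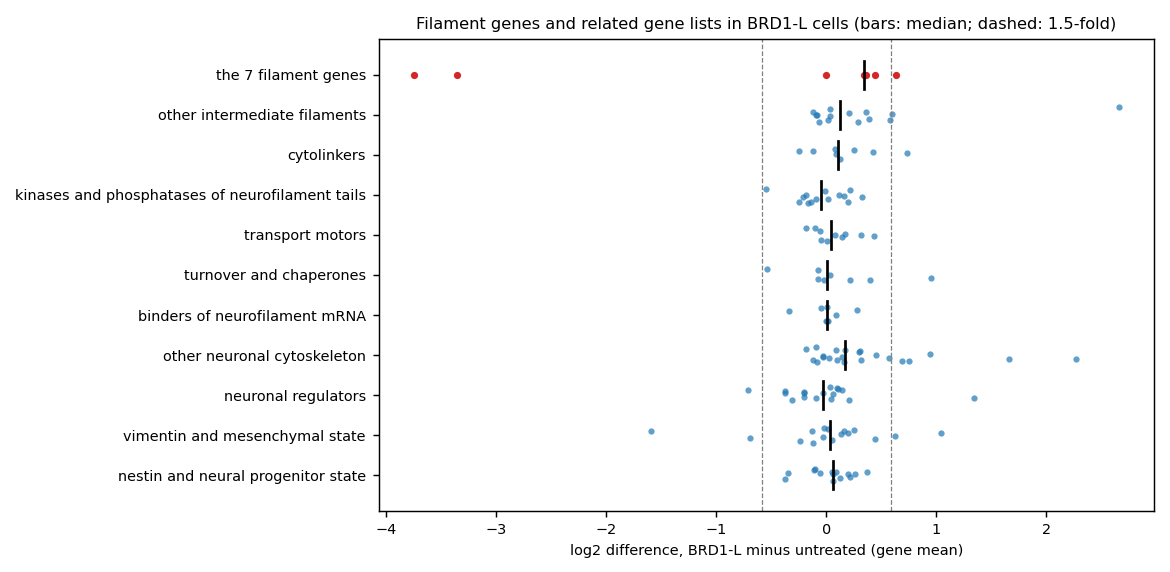
Log2 difference of BRD1-L from untreated cells for the 7 filament genes (red) and the genes of 10 lists (blue); black bars are medians and dashed lines mark 1.5-fold. *NEFM* and *NEFL* lie apart on the left, and the farthest points on the right are *KRT8* (2.66) and *BASP1* (2.27).

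Regulators, motors and turnover genes showed few large differences in BRD1-L cells. Kinases and phosphatases of the neurofilament tails had 0 higher and 2 lower of 14 (median -0.05), with *MAPK9*, a JNK kinase gene, at -0.55, *PRKACA*, a catalytic subunit of protein kinase A, at 0.33, *PPP2CA*, a phosphatase 2A subunit, at -0.21 and *MAPK3*, the ERK1 kinase gene, at 0.20. Transport motors had 1 higher and 0 lower of 10 (median 0.04), with *KIF5C*, a neuronal kinesin heavy chain gene, at 0.44 and *MYO5A*, a myosin motor gene, at 0.32. Cytolinkers, which tie filaments to junctions and to each other, had 1 higher and 0 lower of 8 (median 0.11), namely *JUP* (plakoglobin) at 0.74, with *DSP* (desmoplakin) at 0.43. *JUP* stood at 9.03 in BRD1-L cells, within the 8.29 to 9.14 of the 8 other arrays, of which the untreated array was the lowest.

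Among 8 genes of turnover and chaperones 1 was higher and 1 lower (median 0.01). *HSPB8*, a small heat shock protein gene, was at 4.28 in untreated cells, 6.04 with BRD1-S and 5.24 with BRD1-L. *DNAJB6*, a co-chaperone gene, was at -0.54 in BRD1-L cells. With BRD1 siRNA it was 0.87, 0.77 and 0.16 higher than with control siRNA in the Qiagen, Dharmacon 1 and Dharmacon 2 pairs (limma adjusted p 0.869). Its control siRNA levels were 9.38, 9.46 and 10.52 in that order, against 10.25, 10.23 and 10.67 with BRD1 siRNA. Untreated cells were at 10.77 and BRD1-L cells at 10.23, so every BRD1 siRNA array also lay below the untreated one. For *HSPB8* the control siRNA arrays read 4.83, 5.09 and 5.07 in the same order, and the untreated array was the lowest of all. Binders of neurofilament mRNA had 1 higher and 1 lower of 8 (median 0.01), with *TARDBP*, the TDP-43 gene, at -0.34. *ELAVL2*, an RNA-binding protein gene of neurons, was at -0.05 in BRD1-L cells and 1.28, 1.33 and -0.08 in the 3 pairs. Its control siRNA levels were 8.93, 8.96 and 9.94 (Qiagen, Dharmacon 1, Dharmacon 2), against 10.21, 10.29 and 9.86 with BRD1 siRNA. Untreated cells were at 9.82, above the Qiagen and Dharmacon 1 controls. Of the 131 genes, limma called 0 in the siRNA contrast and 9 had an unadjusted p under 0.05, 6.87% of them, close to the 4.9% of all genes.

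Lists built around cell state were mixed. Neuronal regulators had 1 higher and 2 lower of 17 (median -0.03): *INSM1*, a zinc finger factor of neuroendocrine cells, was at 1.34 while *ISL1*, a LIM homeodomain factor of motor and sensory neurons, at -0.71 in BRD1-L and -0.62 in BRD1-S cells. The repressor of neuronal genes, *REST*, was at 5.54 in untreated and 5.45 in BRD1-L cells. The list on vimentin and the mesenchymal state had 2 higher and 2 lower of 16 (median 0.04), with the mesenchymal factor *SNAI2* going from 10.09 in untreated to 8.50 in BRD1-L cells, below the 9.86 to 11.02 of the 8 other arrays, and the epithelial adhesion gene *EPCAM* from 4.04 to 5.08, within their range. *FN1*, the fibronectin gene of mesenchymal cells, was at 0.62 and *TWIST1*, a mesenchymal factor, at 0.45, in the other direction from *SNAI2*. The *FN1* level in BRD1-L cells, 6.14, lay within the 5.51 to 6.18 of the 8 other arrays. For *TWIST1* it was 9.436, just above their 8.988 to 9.429, of which the untreated array was the lowest and BRD1-S the highest. Nestin and the neural progenitor state had 1 higher and 0 lower of 14 (median 0.06), with *SOX2* at 0.37 and *LIN28B* at -0.37. The *SOX2* level in BRD1-L cells, 6.635, lay within the 6.26 to 6.71 of the 8 other arrays. For *LIN28B* it was 8.55, just below their 8.58 to 9.11. *REST* is named for its role.

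*NEFM* and *NEFL* are neighbours in the genome, so the genes beside them were read as well. By the order in the RefSeq gene table only *ADAMDEC1* and *DOCK5* of the 6 table entries on each side had a probe set, and the search was widened, after the data were seen, to the 6 nearest measured genes per side. Of these 12, 6 lay above the median of all values in untreated cells, and none was lower to the extent of the pair. *SLC25A37*, a mitochondrial iron importer gene, had the largest difference in BRD1-L cells, from 6.98 to 6.35 (-0.64), and was at 6.63 in BRD1-S cells. *DOCK5* (-0.19), *KCTD9* (-0.19), *CDCA2* (-0.04), *PPP2R2A* (-0.04) and *ENTPD4* (0.21) differed little, and *ADAMDEC1*, *ADAM28*, *STC1*, *NKX2-6*, *GNRH1* and *EBF2* were at or below 4.36 on every array, where a lower level could not be seen.

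The likeness of other genes to the pair was taken as Pearson's r over the arrays, among 982 genes with their highest array above the median of all values and a range of at least 1 log2 unit, as a description in which all points share the same arrays. *NEFM* and *NEFL* followed each other with r = 0.983 over 9 arrays and 0.873 over the 8 without BRD1-L. Most like their mean over 9 arrays were *SPATC1L* (r = 0.989), *LYPD1* (0.979), *BLTP1* (0.970), *CCND1* (0.963), the cyclin D1 gene, and *ZNF726* (0.961), all of them lowest on the BRD1-L array. For the pair, the r values over 9 arrays turn largely on the BRD1-L array, by which the pair was chosen, and carry no further support. Over 8 arrays, an alternative added after seeing the data, the top 5 were others, *TRIM65* (0.984), *CA2* (0.964), *NADK* (0.948), *TEKT2* (0.946) and *TMEM144* (0.942). For the other members over 9 arrays, *RTN1* (0.976), *TMSB15A* (0.974) and *ZNF416* (0.967) were most like *INA*, and *RAB27A* (0.985), *KRABD4* (0.980) and *ZNF546* (0.973) most like *VIM*. *RBP7* (0.920), *OCEL1* (0.882) and *RAB26* (0.878) were most like *PRPH*, and *GEM* (0.898), *FOXQ1* (0.895) and *YPEL3* (0.889) most like *NES*. *NEFH* went with 2 histone H2A genes, *H2AC14* (0.963) and *H2AC20* (0.911), and with *FAM221A* (0.759), and for *H2AC14* the array with BRD1 siRNA of Dharmacon pair 2 read 6.82 against 3.24 to 4.46 on the others.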

How the data were processed

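RNA of 9 HEK293T samples was hybridised to Affymetrix U219 arrays. The deposited log2 intensities are those of the authors, who normalized probe intensities to the mean of the array; probe summarisation and background correction are not given in the sources used here, and no detection calls were used, so that low signal was judged by level alone. Only probe sets that name 1 gene were used, and a gene's level is their mean. The study's threshold of 1.5-fold was applied to each probe set, and 1 set past it sufficed for a gene. Single arrays were compared without a test. The 3 BRD1 siRNA and 3 control siRNA arrays entered a linear model (limma 3.58.1, R 4.3.3) that held a term for the kit, with Benjamini-Hochberg adjustment over all 18239 genes and a threshold of 0.05, after a test of the step on simulated data. Arrays with the same label deviated together (r of 0.333, 0.224 and 0.333 across genes), though the Dharmacon 1 siRNA array was about as close to the Qiagen control (0.215), and the labelled pairs were therefore also used as a block. Python 3.11.15, numpy 2.4.6, pandas 2.3.3 and scipy 1.17.1 served for the rest.

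Members, lists and tests were chosen with earlier results of these data known. Genes named are the filament genes, *BRD1*, up to 4 genes per list with the largest difference in BRD1-L cells and signal above the median of all values, list genes with every probe set past 1.5-fold in a line, neighbours of *NEFM* and *NEFL*, the most alike genes and those next in rank. *REST*, *ELAVL4*, *SNAP25*, *STMN2*, *SIX2*, *ENO2*, *GAP43*, *SYP* and *CDH1* are named outside that rule. Alternatives were centring, quantile normalization, a 2-fold threshold, gene means or single probe sets, dim probe sets left out, other control arrays, no covariate, a variance trend, all 9 arrays, the block and each siRNA array left out.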

Additional observations from a re-analysis of the deposited data

How the results depend on the processing

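The differences of *NEFL* and *NEFM* in BRD1-L cells kept their sign under every alternative, from -3.17 to -3.76 and from -3.79 to -4.21. Each alternative keeps the array on which both genes were chosen, so the kept sign carries no further support. Counts of filament genes past the threshold moved as follows. With 2-fold they went from 1 to 0 in BRD1-S, from 4 to 2 in BRD1-L (*NEFL* and *NEFM*), from 3 to 0 in the Qiagen pair, from 1 to 0 in Dharmacon pair 1 and from 2 to 1 in Dharmacon pair 2. Centring and quantile normalization each took BRD1-L from 4 to 3 (without *PRPH*, at 0.563 and 0.574). With gene means they were 3 in BRD1-L (without *NES*), 1 in the Qiagen pair and 0 in Dharmacon pair 1, and with bright probe sets only 2 in the Qiagen pair, 0 in Dharmacon pair 1 and 1 in Dharmacon pair 2. With the mean of the control siRNA arrays as reference, BRD1-S gave 3 (*NEFL* and *NEFM* lower, *INA* higher), and *PRPH* in BRD1-L cells went from 0.63 to -0.044.

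In limma the filament calls stayed at 0 except without Dharmacon pair 2 (1 filament gene and 2487 genes in all, chosen after seeing the data). There *NEFH* turned from 0.01 to -0.43 and *NES* from -0.13 to 0.11, and quantile normalization turned *PRPH* from -0.01 to 0.004. Leaving out 1 array gave 0 to 33 genes in all (33 without the control of Dharmacon pair 2) and estimates of -0.28 to 0.016 for *NEFL*, -0.53 (without siRNA of Dharmacon pair 1) to -0.08 (without either Qiagen array) for *NEFM*, 0.06 (without the control of Dharmacon pair 1) to 0.18 for *VIM*, -0.34 to 0.23 for *NEFH*, -0.13 to 0.24 for *INA*, -0.10 to 0.13 for *PRPH* and -0.37 to 0.18 for *NES*. The replicate block changed no call, with 0 genes called and 1471 under an unadjusted p of 0.05. It lowered the SE of every filament gene, for *NEFM* from 0.26 to 0.14 and for *INA* from 0.19 to 0.089, and all their intervals still spanned 0. The cause of these shifts was not tested. No array could be left out of the single-array comparisons.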
